A study of Mus musculus with 2 samples.

Results

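Small nucleolar RNA host genes are transcribed as spliced RNAs whose introns hold small nucleolar RNAs (snoRNAs). A total of 8 of them, Snhg1, Snhg3, Snhg6, Snhg8, Snhg11, Snhg12, Snhg20 and Gas5, are described here among 55536 annotated genes of aged mouse cortex. They were chosen by symbol, read from the transcript identifiers and joined to the gene tables by gene identifier. The tissue was left cerebral cortex from B6CASTF1/J males, a first-generation hybrid of the B6 and CAST strains, aged 18 to 20 months. The series is 1 group of 2 libraries, replicate 2 and replicate 1, each made from 300 ng of RNA with ERCC spike-ins, and neither carried a treatment or an engineered allele. Both libraries carry the same donor identifier and separate biosample identifiers. Nothing in the labels tells separate animals apart, so spread between animals, dissections and library preparations cannot be told apart. With no condition to compare, differences are given with counting intervals and without p-values.

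In a host gene, the exons are spliced together while the excised introns are trimmed to mature snoRNAs. Box C/D snoRNAs guide methylation of ribosomal RNA, box H/ACA snoRNAs guide its pseudouridylation, and small Cajal body RNAs (scaRNAs) do the same for spliceosomal RNAs. The spliced RNA of many hosts has little coding capacity and is removed by nonsense-mediated decay, a pathway that degrades RNAs with early stop codons. Several mammalian hosts start within a tract of pyrimidines, the 5′ terminal oligopyrimidine (TOP) sequence, which they share with ribosomal protein genes. The steady-state level of a host RNA therefore need not follow the output of its introns.

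The depth over annotated genes was 29897486 expected counts for replicate 2 and 22827984 for replicate 1. A level of 1 TPM, a length-normalised abundance on a scale with the same total in each library, was reached by 15116 genes in replicate 2 and 16085 in replicate 1. The labelled tissue was checked against marker genes. Slc17a7 and Tbr1 of cortical excitatory neurons stood at 562 and 52.2 TPM in replicate 2 and at 581 and 52.8 TPM in replicate 1, while neither cerebellar marker (Cbln3, Gabra6) was above 0.14 TPM. All 4 striatal markers (Ppp1r1b, Drd1, Adora2a, Drd2) were higher in replicate 2 by more than 1.5-fold, with a summed level of 182 TPM in replicate 2 and 80.5 TPM in replicate 1. None of the 4 was at 0. Of the 2 choroid plexus markers, Ttr was also past 1.5-fold higher in replicate 2 (17.1 TPM in replicate 2 and 9.59 TPM in replicate 1, log2 ratio 0.97, 0.70 to 1.247), while Kl had 1.28 TPM in replicate 2 and 1.45 TPM in replicate 1, and their summed level was 18.4 TPM in replicate 2 and 11.0 TPM in replicate 1. The striatal and choroid plexus values stand beside every ratio between the replicates given here, and their part in those ratios was not tested.

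The annotation placed 31 small RNA genes inside the 8 hosts on the same strand, of which 29 were snoRNAs, 1 a scaRNA and 1 a miRNA. Gas5 held 10, Snhg1 8, Snhg12 5, Snhg3, Snhg11 and Snhg20 2 each, and Snhg6 and Snhg8 1 each. Snord80 in Gas5 and Snora16a in Snhg12 are each annotated more than once at overlapping coordinates. Counts of nested RNAs here and below are therefore of annotated entries. The sequences below had the most counts among the nested RNAs of Snhg3, Snhg20 and Snhg11, which stood well above or below their hosts, and Snora73a is added as the near-identical copy of Snora73b, all as given by the GENCODE M21 transcripts (GRCm38). Capitals mark the ACA trinucleotide near the 3′ end, the hallmark of box H/ACA RNAs.
Snora73b: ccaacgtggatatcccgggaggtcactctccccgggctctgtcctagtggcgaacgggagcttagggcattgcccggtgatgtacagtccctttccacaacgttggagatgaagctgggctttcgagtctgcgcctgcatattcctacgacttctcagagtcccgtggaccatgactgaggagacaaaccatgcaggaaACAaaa
Snora73a: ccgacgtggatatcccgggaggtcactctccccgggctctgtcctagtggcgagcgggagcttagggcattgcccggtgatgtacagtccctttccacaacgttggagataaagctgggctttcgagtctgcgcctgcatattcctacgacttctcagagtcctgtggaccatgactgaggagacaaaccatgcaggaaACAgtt
Gm26083: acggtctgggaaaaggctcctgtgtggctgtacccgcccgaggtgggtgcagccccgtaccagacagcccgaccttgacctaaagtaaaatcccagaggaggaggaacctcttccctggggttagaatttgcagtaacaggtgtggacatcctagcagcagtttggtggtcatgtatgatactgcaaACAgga
Gm25129: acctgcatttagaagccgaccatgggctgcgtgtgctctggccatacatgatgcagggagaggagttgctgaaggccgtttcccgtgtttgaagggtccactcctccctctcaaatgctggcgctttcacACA

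Snora73b (chr4:132352322-132352526, minus strand) and Snora73a (chr4:132352775-132352979, minus strand) lie in Snhg3. Both are 205 bases long and differ at 7 positions, an identity of 96.6%. Counted from 1 at the 5′ end, with the Snora73a base first, the differences are G3A, G54A, A111G, T164C, G203A, T204A and T205A. Members of this family act in the cutting of the ribosomal RNA precursor rather than in its modification. Reads from these near-identical copies may have been divided between them, so their separate values are uncertain. Gm26083 (chr11:117077243-117077435, plus strand) is the scaRNA of Snhg20, and Gm25129 (chr2:158379534-158379666, plus strand) is a snoRNA of Snhg11. The second snoRNA of Snhg11, Gm25187, has the same length of 133 bases as Gm25129 and an identity of 68.4% with it over 136 aligned columns.

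The short nested RNAs were of the other kind. Of the 19 nested RNAs under 100 bases, 16 held TGATGA and a later CTGA on the RNA's strand, the letters of box C and box D. Of the 12 longer ones, 9 held ACA in the last 10 bases. A box C/D example from Gas5 and the single snoRNA of Snhg6 are shown with those letters in capitals, because neither could receive a read in the tables described here.
Snord47: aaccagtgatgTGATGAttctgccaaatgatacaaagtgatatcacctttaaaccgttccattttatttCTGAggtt
Snord87: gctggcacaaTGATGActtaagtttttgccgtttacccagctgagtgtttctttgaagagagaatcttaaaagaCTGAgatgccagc

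Snord47 lies at chr1:161038082-161038158 on the plus strand and Snord87 at chr1:9942463-9942549 on the minus strand. The RSEM-layout tables gave each small RNA an effective length of its length minus 99 bases, and 0 where that was not positive. All 19 nested RNAs under 100 bases, the longest of 87 bases, therefore had an effective length of 0 and were listed at 0. Their zeros say nothing of whether these snoRNAs were present.

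The 5′ ends of the hosts were compared with a TOP-like tract, searched on the sense strand as C followed by at least 4 C or T and beginning within 5 bases of the annotated start. RefSeq windows (GRCm38.p6) were found for 7 hosts, 8 windows in all, and none was matched for Snhg6. The tract was present in 4 of the 8 windows, 1 each in Snhg3, Snhg8, Snhg12 and Gas5, and in 18.3% of the 32851 windows in the table. Each line runs for 30 bases, of which 10 lie before the annotated start, with the tract in capitals. Snhg11, the most abundant host, is shown as a window without the tract.
Snhg3: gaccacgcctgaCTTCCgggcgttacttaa
Snhg8: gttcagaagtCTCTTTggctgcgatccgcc
Snhg12: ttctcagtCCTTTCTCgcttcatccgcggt
Gas5: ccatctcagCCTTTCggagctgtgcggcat
Snhg11: tgcggcactcactcacgcactcagcctgct

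These windows lie at chr4:132353667-132353696 (minus strand), chr3:123508317-123508346 (minus strand), chr4:132308668-132308697 (plus strand), chr1:161035156-161035185 (plus strand) and chr2:158375703-158375732 (plus strand), in the order printed. The other Gas5 window and those of Snhg1 and Snhg20 held no such letters. A match describes these letters only, and RefSeq starts differed from the outer GENCODE M21 gene boundary by 0 to 775 bases.

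Among the hosts, Snhg11 and Gas5 were abundant and the other 6 were of moderate level. Snhg11, a neuron-enriched host (ENSMUSG00000044349.15, chr2:158375638-158386145, plus strand, annotated protein-coding in GENCODE M21 and as a long noncoding RNA in RefSeq), had 270 TPM in replicate 2 and 447 TPM in replicate 1, a mean of 358 ± 125 TPM (SD, n = 2). It ranked number 162 among all annotated genes by mean TPM. Gas5, named for its rise in growth-arrested cells (ENSMUSG00000053332.13, chr1:161034422-161038539, plus strand), had 96.8 TPM in replicate 2 and 114 TPM in replicate 1, a mean of 105 ± 12.3 TPM (SD, n = 2), and ranked number 927. Replicate 1 was the higher library for both genes. The 8 hosts summed to 455 TPM in replicate 2 and 655 TPM in replicate 1. Snhg11 alone held 59.3% and 68.3% of those sums, and 92.5% and 94.7% of the hosts' expected counts.

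A middle group of 3 hosts had similar levels. Snhg12 (ENSMUSG00000086290.9, chr4:132308623-132311024, plus strand), which holds 5 nested genes of both snoRNA kinds, had 19.3 TPM in replicate 2 and 20.2 TPM in replicate 1 (mean 19.8 ± 0.66, SD, n = 2). Snhg8 (ENSMUSG00000104960.1, chr3:123507552-123508404, minus strand), the host of Snora24, had 21.04 TPM in replicate 2 and 16.25 TPM in replicate 1 (mean 18.6 ± 3.39, SD, n = 2). Snhg20 (ENSMUSG00000086859.4, chr11:117076008-117078955, plus strand), the scaRNA host, had 17.1 TPM in replicate 2 and 19.9 TPM in replicate 1 (mean 18.5 ± 1.94, SD, n = 2). Snhg8 was the only one of the 8 hosts with the higher TPM in replicate 2.

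The lowest group also had 3 hosts. Snhg6 (ENSMUSG00000098234.7, chr1:9941959-9944118, minus strand), the host of Snord87, had 11.3 TPM in replicate 2 and 11.9 TPM in replicate 1 (mean 11.6 ± 0.45, SD, n = 2). Snhg3 (ENSMUSG00000085241.7, chr4:132348014-132353686, minus strand), the host of the Snora73 pair, had 9.96 TPM in replicate 2 and 12.9 TPM in replicate 1 (mean 11.4 ± 2.09, SD, n = 2). Snhg1 (ENSMUSG00000108414.1, chr19:8723475-8726443, plus strand), which holds 8 snoRNAs, had 9.78 TPM in replicate 2 and 12.1 TPM in replicate 1 (mean 10.9 ± 1.62, SD, n = 2). Although low among the 8, these 3 ranked between 96 and 109 by mean TPM against the 10155 genes of long noncoding classes.

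Neighbours in this order were set apart where their deposited TPM intervals did not overlap in both libraries. Snhg11 stood above Gas5, Gas5 above Snhg12, and Snhg20 above Snhg6. Within the middle group (Snhg12, Snhg8, Snhg20) and within the low group (Snhg6, Snhg3, Snhg1), neighbouring intervals overlapped in both libraries. The deposited interval surrounds the posterior mean, not the TPM. For Snhg11 the TPM lay above its interval in both libraries, which ran between 255.4 and 269 in replicate 2 and between 419 and 437 in replicate 1, and for Snhg1 the TPM of 9.78 in replicate 2 lay below its interval of 9.96 to 14.6.

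**Figure D1:**
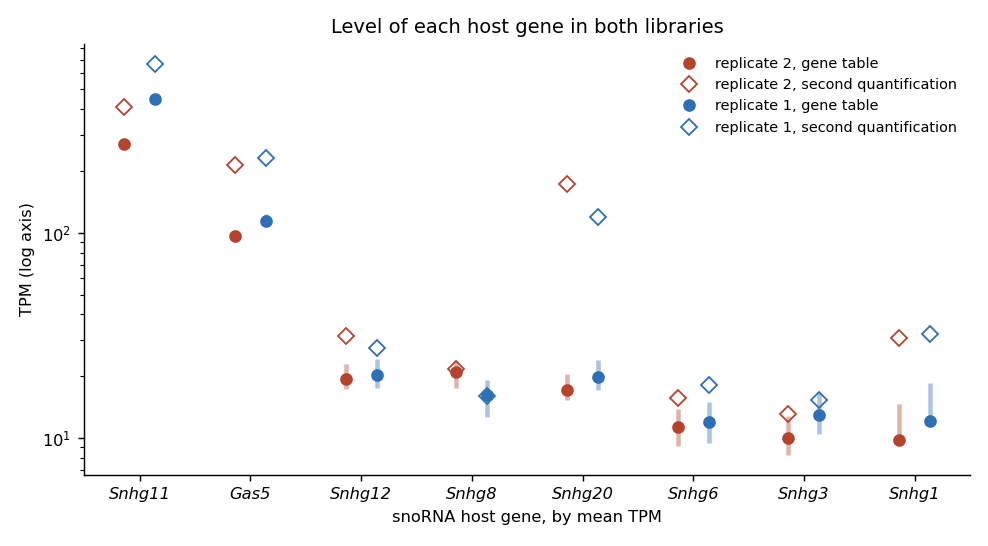
TPM of the 8 hosts on a log axis in replicate 2 and replicate 1, with the RSEM-layout value and its deposited interval and the value of the second quantification for each library. Snhg11 lies highest in every estimate, and Snhg20 shows the widest separation of the quantifications, with means of 18.5 and 146 TPM.

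The order below Gas5 depended on the quantification. A second transcript table, with the column layout of kallisto, gave Snhg20 174 TPM in replicate 2 and 119 TPM in replicate 1, a mean 7.92 times that of the RSEM-layout table. It gave Gas5 a mean of 223 TPM, 2.12 times as high, and Snhg1 a mean of 31.4 TPM. Snhg8 changed least in TPM, at a mean of 18.8. Its counts there were lower, 58 in replicate 2 and 31 in replicate 1, against 163 and 92 in the RSEM-layout table. Snhg11 stayed first at 413 TPM in replicate 2 and 669 TPM in replicate 1.

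Snhg11 was the host that differed most between the libraries. Its expected count was 27642 in replicate 2 and 34297 in replicate 1, although replicate 2 was the deeper library. After scaling by the trimmed mean of M values (TMM), its log2 ratio of replicate 2 over replicate 1 was -0.65 (95% counting interval -0.68 to -0.63), 1.57-fold lower in replicate 2. It was the 1 host of 8 past 1.5-fold lower, and no host was past 1.5-fold higher. Snhg8 was past 1.5-fold higher in the second quantification, at a log2 ratio of 0.61 from 58 counts in replicate 2 and 31 in replicate 1. The background was 12348 genes at a mean count of at least 100, of which 1.98% were past 1.5-fold lower and 0.915% past 1.5-fold higher; at a minimum of 50, which all 8 hosts met, the shares were 4.11% and 1.34%. In bulk tissue, fewer cells of a type and less RNA per cell cannot be told apart.

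The share of genes as far apart as Snhg11 differed between gene classes. Among long noncoding classes 42 of 263 genes (16.0%) were past 1.5-fold lower in replicate 2, and among nuclear protein-coding genes 81 of 11647 (0.695%). Snhg11 is counted with the protein-coding genes there, after its annotation.

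Gas5 and Snhg8 differed by less, in opposite directions. The expected count of Gas5 was 1207 in replicate 2 and 1079 in replicate 1, which gave a log2 ratio of -0.18 (-0.30 to -0.06). For Snhg8 it was 163 in replicate 2 and 92.0 in replicate 1, giving 0.48 (0.10 to 0.87). Counting Snhg11, 2 of the 8 hosts were lower in replicate 2 beyond the counting interval and 1 was higher, while 15.6% of all genes tested were lower and 28.1% higher by the same rule. The intervals cover counting error only, so a ratio outside them is a difference between these libraries.

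For the other 5 hosts the counting interval included 0. Snhg1 had 171 counts in replicate 2 and 154 in replicate 1 (log2 ratio -0.19, -0.52 to 0.13), and Snhg3 had 86.6 in replicate 2 and 78.2 in replicate 1 (log2 ratio -0.19, -0.64 to 0.27). Snhg12 had 284 in replicate 2 and 241 in replicate 1 (log2 ratio -0.11, -0.36 to 0.15), and Snhg20 had 231 in replicate 2 and 192 in replicate 1 (log2 ratio -0.08, -0.36 to 0.21). The second quantification turned Snhg20 to 0.42, higher in replicate 2. Snhg6 had 102 in replicate 2 and 81.0 in replicate 1 (log2 ratio -0.01, -0.45 to 0.43), and the second quantification turned it to 0.03. With at most 284 counts in a library, differences of the size seen for Gas5 were not detectable in these 5 genes. The median log2 ratio of the 8 hosts was -0.14, and that of all genes tested was 0.05. A mean count of 100 was reached by 6 of the 8, all but Snhg3 and Snhg6, and the calls were the same 3 genes.

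**Figure D2:**
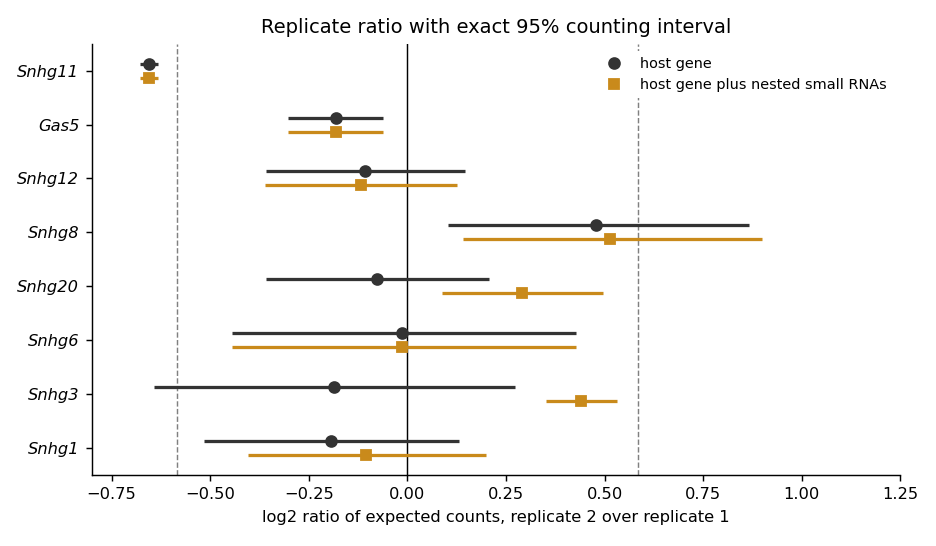
Log2 ratio of replicate 2 over replicate 1 for each host, and for the host together with its nested small RNAs, with 95% counting intervals. Solid and dashed vertical lines mark no difference and 1.5-fold; Snhg11 alone lies past the lower 1.5-fold line, and the values of Snhg3 and Snhg20 change sides when nested RNAs are added.

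The hosts had 78 annotated transcripts, of which 34 were listed above 0 in both libraries. Each host had the same leading transcript in both libraries of the RSEM-layout table, but only Snhg3, Snhg8, Snhg11 and Snhg12 had the same one in both quantifications. Snhg11-201, a transcript of 5864 bases, held 81.7% of the gene's TPM in replicate 2 and 85.7% in replicate 1 (mean 83.7 ± 2.8%, SD, n = 2). The second quantification gave it a mean of 90.5%.

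Snhg11's lower level in replicate 2 was seen in its main transcript and not in each of the others. Snhg11-201 had 221 TPM in replicate 2 and 383 TPM in replicate 1, with a log2 count ratio of -0.66 (-0.69 to -0.64). Snhg11-205, annotated as a nonsense-mediated decay substrate, had 12.3 TPM in replicate 2 and 21.2 TPM in replicate 1, with a log2 count ratio of -0.65 (-0.87 to -0.43). The retained-intron Snhg11-202 had 10.4 TPM in replicate 2 and 18.5 TPM in replicate 1, with a log2 count ratio of -0.70 (-0.85 to -0.55). These 3 transcripts moved by similar amounts. Snhg11-204, another retained-intron form, had 15.1 TPM in replicate 2 and 13.9 TPM in replicate 1. Snhg11-203, also annotated as a nonsense-mediated decay substrate, had 11.6 TPM in replicate 2 and 10.2 TPM in replicate 1. For Snhg11-204 and Snhg11-203, the log2 count ratios of 0.26 (-0.08 to 0.60) and 0.31 (-0.05 to 0.68) had intervals that included 0. The second quantification gave Snhg11-204 a log2 count ratio of 0.54, from 34.4 counts in replicate 2 and 19.2 in replicate 1. It gave Snhg11-203 the other sign, -0.13, from 18.7 counts in replicate 2 and 17.4 in replicate 1.

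The leading transcripts of the other hosts varied in how far their shares differed between the libraries. Snhg8-201 held 92.1% of the TPM in replicate 2 and 71.5% in replicate 1, Snhg20-202 held 87.3% and 73.7%, and Snhg12-206 held 74.8% and 47.7%, in the same order of libraries. Snhg6-203 held 66.1% in replicate 2 and 69.4% in replicate 1, and Snhg3-202 held 56.8% in replicate 2 and 47.5% in replicate 1. Snhg1-211 had the widest gap, with 71.7% in replicate 2 and 36.1% in replicate 1 (mean 53.9 ± 25.2%, SD, n = 2). Its TPM lay above its deposited interval in both libraries. It was 7.02 against an upper bound of 6.43 in replicate 2, and 4.36 against 4.01 in replicate 1. The leading Gas5 transcript, Gas5-210, held 49.1% in replicate 2 and 42.1% in replicate 1, and in the second quantification Gas5-203 led, a transcript listed at 0 and 0.27 TPM in the RSEM-layout table. Which of the short Gas5 forms is the most abundant was thus not settled by these tables.

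Retained-intron transcripts are host RNAs that still carry an intron. They made up 37 of the 78 transcripts and belonged to 4 hosts. In Snhg1 they held 28.3% of the TPM in replicate 2 and 53.4% in replicate 1, and in Gas5 27.4% in replicate 2 and 32.7% in replicate 1. By expected counts, which weigh long forms more, the shares were 56.9% in replicate 2 and 74.8% in replicate 1 for Snhg1 and 47.2% in replicate 2 and 53.6% in replicate 1 for Gas5. Snhg11 had 9.44% of its TPM in such forms in replicate 2 and 7.24% in replicate 1, and Snhg8 had 7.91% and 3.72%. The second quantification gave retained-intron forms 72.0% of the TPM of Snhg1 in replicate 2 and 80.3% in replicate 1, and 20.0% of that of Gas5 in replicate 2 and 24.9% in replicate 1. For Snhg8 it gave 13.6% in replicate 2 and 4.41% in replicate 1, and for Snhg11 5.43% in replicate 2 and 4.87% in replicate 1.

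**Figure D3:**
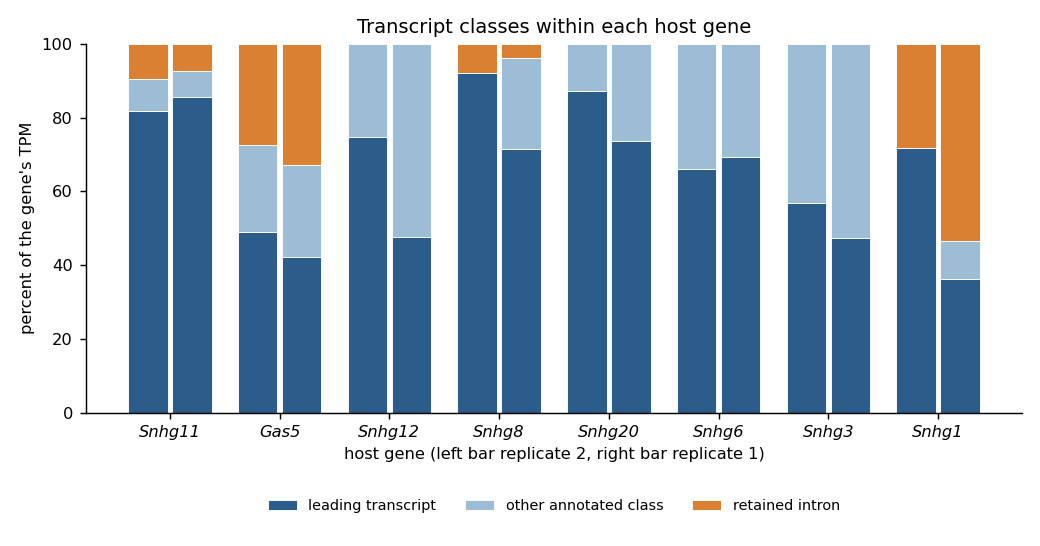
Percent of each host's TPM held by its leading transcript, by retained-intron transcripts and by transcripts of another annotated class, in replicate 2 and replicate 1. Snhg1 and Gas5 have the largest retained-intron shares, and the leading transcript of Snhg11 holds 81.7 and 85.7 percent.

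Whether a host transcript contains a whole small RNA was then read from the exon coordinates. Of the 31 nested genes, 30 lay in an intron of the host's leading transcript, and the exception was Snora73a, which overlapped an exon of Snhg3-202 by 159 bases. At least 1 other host transcript contained the whole small RNA for 27 of the 31. Such containing transcripts numbered 39 over 6 hosts, of which 29 were annotated as retained introns, and the remaining ones belonged to Snhg12 and Snhg20, where they are annotated as lincRNAs. They held a mean of 38.8 ± 19.1% of the TPM of Snhg12, 25.6 ± 0.82% of Snhg1, 23.9 ± 1.49% of Gas5, 10.7 ± 1.0% of Snhg20, 5.82 ± 2.96% of Snhg8 and 3.99 ± 0.2% of Snhg11 (SD, n = 2 each). Snhg3 and Snhg6 had no such transcript. In the second quantification the share was 83.3% in replicate 2 and 75.6% in replicate 1 for Snhg20, 66.7% in replicate 2 and 53.4% in replicate 1 for Snhg1, and 50.8% in replicate 2 and 72.5% in replicate 1 for Snhg12. It was 13.6% in replicate 2 and 4.41% in replicate 1 for Snhg8, 15.8% in replicate 2 and 19.5% in replicate 1 for Gas5, and 3.88% in replicate 2 and 4.16% in replicate 1 for Snhg11.

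The 12 nested RNAs long enough to receive reads gave levels that spanned a wide range. Of these, 7 had counts in both libraries, 2 had counts in replicate 2 only and 3 had none. Snora24 of Snhg8 had 3.74 counts in replicate 2 and 0 in replicate 1, and 1 of the 2 overlapping Snora16a entries of Snhg12 had 2.06 in replicate 2 and 0 in replicate 1. The 3 without counts were the other Snora16a entry, Gm25187 and Mir6516, the miRNA of Snhg20, whose hairpin overlaps Gm26083.

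Snora73b and Snora73a were the most abundant of them. Snora73b had 1576 expected counts and 718 TPM in replicate 2 and 866 counts and 550 TPM in replicate 1, a log2 count ratio of 0.52 (0.40 to 0.64). Snora73a had 1066 counts and 486 TPM in replicate 2 and 640 counts and 406 TPM in replicate 1, a log2 count ratio of 0.39 (0.25 to 0.54). Per length, Snora73b stood 72.1 times above its host Snhg3 in replicate 2 and 42.6 times in replicate 1. TPM of RNAs this short rests on an effective length that is a fraction of the RNA.

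The scaRNA of Snhg20 also exceeded its host. Gm26083 had 272 counts and 140 TPM in replicate 2 and 132 counts and 94.2 TPM in replicate 1, a log2 count ratio of 0.70 (0.39 to 1.01). The host's own log2 ratio was -0.08, with an interval that included 0. In Snhg1, Snord22 had 31.4 counts and 56.2 TPM in replicate 2 and 17.3 counts and 43.0 TPM in replicate 1, with a log2 count ratio of 0.50 (-0.37 to 1.47). The TPM of Snord22 was 5.74 times that of Snhg1 in replicate 2 and 3.56 times in replicate 1. In Snhg12, Snora44 had 14.4 counts in replicate 2 and 10.4 in replicate 1, and Snora61 had 3.55 in replicate 2 and 8.51 in replicate 1. The TPM of Snora44 was 1.20 times that of Snhg12 in replicate 2 and 1.15 times in replicate 1. For Snora61 it was 0.287 times in replicate 2 and 0.913 times in replicate 1.

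Snhg11 was the reverse case, a host far above its snoRNAs. Gm25129 had 24.0 counts and 34.1 TPM in replicate 2 and 28.0 counts and 55.4 TPM in replicate 1, a log2 count ratio of -0.56 (-1.42 to 0.27). Its TPM was 0.126 times that of Snhg11 in replicate 2 and 0.124 times in replicate 1. Gm25187 was listed at 0 in both libraries, with an upper interval bound of 5.34 TPM in replicate 2 and 10.5 TPM in replicate 1. Both are 133 bases long with an effective length of 34, against 106 for each Snora73 copy and 94 for Gm26083. In other hosts, Snora24 and Snora61, of 130 bases, also stood below their hosts in both libraries. Snora44, of 129 bases, and Snord22, of 126, stood above theirs. The part of RNA length in this contrast was not tested.

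**Figure D4:**
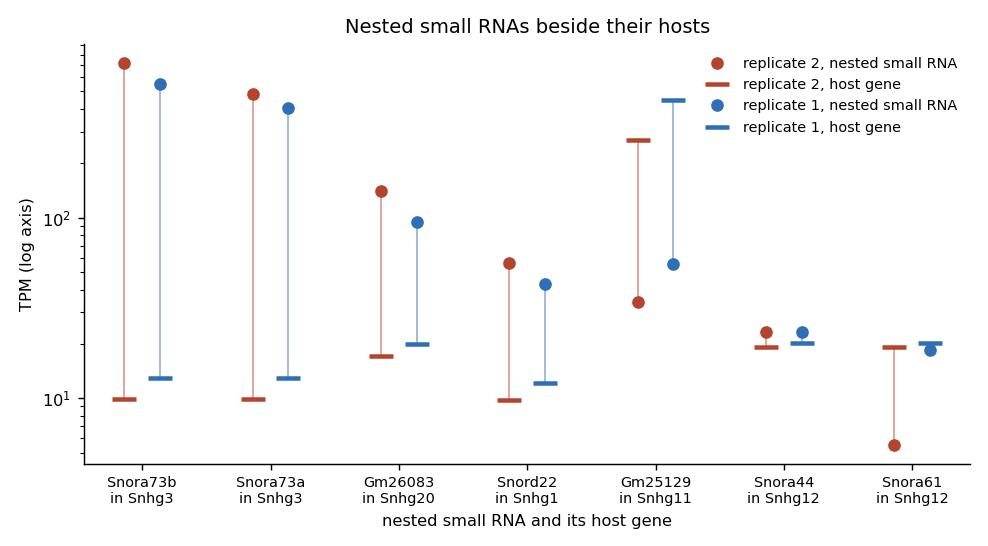
TPM on a log axis of the nested small RNAs with counts in both libraries, beside the TPM of their host genes, in replicate 2 and replicate 1. Snora73b, Snora73a, Gm26083, Snord22 and Snora44 lie above their hosts in both libraries, and Snora61 and Gm25129 lie below theirs.

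Across the whole annotation, 26 snoRNA and scaRNA genes reached a mean count of 100. Their median log2 ratio was 0.26, the range was -0.24 to 1.71, and 15 were higher and 1 lower in replicate 2 beyond the counting interval. The 3 nested RNAs of that size, Snora73b, Snora73a and Gm26083, are among the 15, which is 57.7% of the class.

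In some hosts, reads were divided between the host and the small RNAs in it. Host counts alone were whole numbers, within 0.015, in 7 of 16 host and library pairs. Host counts plus nested counts were whole in all 16. Counts of Snhg11 were whole alone in both libraries and show no such division. Those of Snhg6 and Gas5 were also whole, but could not have been divided in this way, because none of their nested RNAs could receive a read. The 7 and the 16 both include the pairs of Snhg6 and Gas5. No exon of an annotated host transcript touches Snora73b or Gm25129. In Snhg3 the nested snoRNAs held 96.8% of the summed counts in replicate 2 and 95.1% in replicate 1. In Snhg20 the share was 54.2% in replicate 2 and 40.6% in replicate 1, and in Snhg1 15.5% in replicate 2 and 10.1% in replicate 1. It was 6.59% in replicate 2 and 7.26% in replicate 1 for Snhg12, and 0.087% in replicate 2 and 0.082% in replicate 1 for Snhg11. Gas5 and Snhg6 had 0, since none of their nested RNAs could hold a read.

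**Figure D5:**
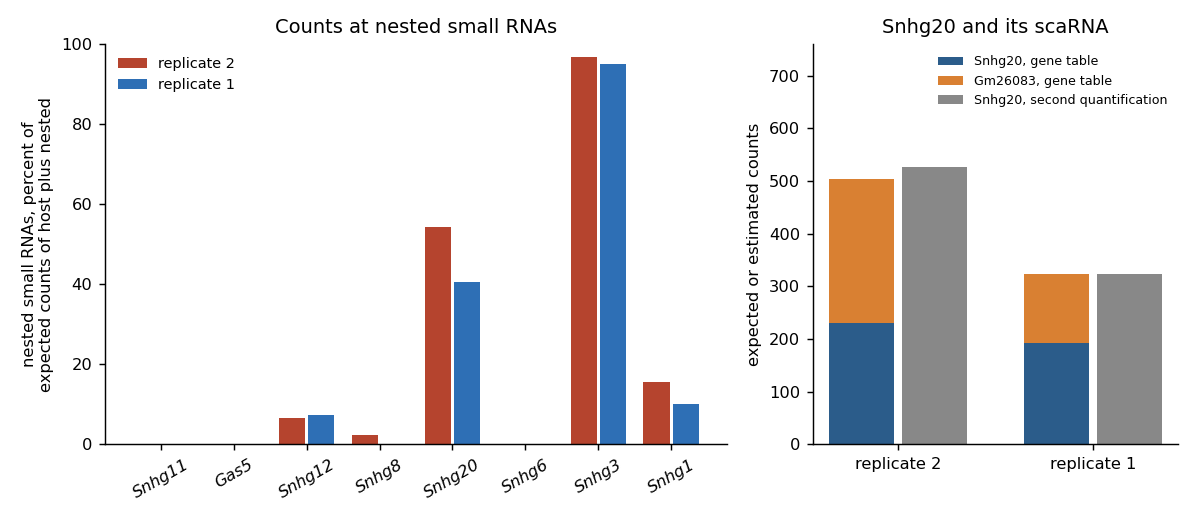
Percent of the summed expected counts of each locus that went to nested small RNAs, in replicate 2 and replicate 1. Snhg3 is near 100 in both libraries, Snhg20 stands at 54.2 and 40.6, and Snhg11, Snhg6 and Gas5 are at or near 0.

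With host and nested counts summed, the ratios of Snhg3 and Snhg20 changed sign. The Snhg3 locus summed to 2729 in replicate 2 and 1585 in replicate 1, with a log2 ratio of 0.44 (0.35 to 0.53), where the host alone had -0.19. The Snhg20 locus summed to 503 in replicate 2 and 324 in replicate 1, with a log2 ratio of 0.29 (0.09 to 0.50), where the host alone had -0.08. The Snhg1 locus had a log2 ratio of -0.10 (-0.40 to 0.20), where the host alone had -0.19. The Snhg8 locus, at 0.51 (0.14 to 0.90), and the Snhg11 locus, at -0.65 (-0.68 to -0.63), stayed near the host values.

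The second quantification reported no reads for the nested RNAs and gave Snhg20 526 counts in replicate 2 and 324 in replicate 1, against 503 and 324 for host plus nested RNAs in the RSEM-layout table. Of these, Snhg20-201, a transcript of 459 bases that contains Gm26083 within an exon, took 302 in replicate 2 and 140 in replicate 1, and it was listed at 0 in the RSEM-layout table. For Snhg1 the second quantification gave 201 counts in replicate 2 and 173 in replicate 1, against locus sums of 202 and 171. For Snhg8 it gave fewer, 58.0 in replicate 2 and 31.0 in replicate 1, against locus sums of 167 and 92. The widest gap was in Snhg3, with 49 counts in replicate 2 and 43 in replicate 1, against locus sums of 2729 and 1585.

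Other annotated genes overlapped 3 of the hosts. Rcc1, a protein-coding gene on the same strand, overlaps most of Snhg3 and had 204 counts in replicate 2 and 188 in replicate 1. The span of Rcc1 also holds Snora73b and Snora73a, so Snhg3 is not the only annotated gene around them. On the opposite strand, Zbtb37 overlaps Gas5 by 428 bases and had 1095 counts in replicate 2 and 1063 in replicate 1, Mcmdc2 overlaps Snhg6 by 127 bases and had 23.0 and 27.0, and Gm17300 overlaps Snhg3 and was listed at 0. No source used here gives the use of strand in counting, so values of these overlapping pairs are uncertain.

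Of 10 further host genes searched by name, 7 were matched and 6 were at 1 TPM or more in both libraries. Snhg14, a long neuronal transcript antisense to Ube3a that carries snoRNA clusters, had 637 TPM in replicate 2 and 1001 TPM in replicate 1, a log2 count ratio of -0.51 (-0.55 to -0.48). It was the highest of the list, and Snhg18 was the lowest at a mean of 0.42 TPM. None of the 3 that reached a mean count of 100 was past 1.5-fold, and all 3 (Snhg14, Snhg5, Snhg17) were lower in replicate 2 beyond the counting interval, against 15.6% of all genes tested. All 3 belong to the long noncoding classes, of which 16.0% were past 1.5-fold lower in replicate 2, against 1.98% of all genes tested. The share of those classes lower beyond the counting interval was not calculated.

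Genes of the machinery were detected throughout. All 4 box C/D proteins were detected, with means between 21.6 TPM for Fbl, the methyltransferase, and 63.0 TPM for Nop56, a core protein. Snu13, which binds the box C/D fold, was the 1 of them that was higher in replicate 2 beyond the counting interval (log2 ratio 0.27, 0.15 to 0.40). All 4 box H/ACA proteins had an interval that included 0, with means between 15.9 TPM for Dkc1, the pseudouridine synthase, and 22.8 TPM for Nop10. Of 8 assembly factors, Nolc1 was highest at 21.9 TPM and the 1 that was higher in replicate 2 beyond counting error (log2 ratio 0.16), and Shq1 was lowest at 3.0 TPM. The share of all genes tested that was higher by this rule was 28.1%. None of these genes was past 1.5-fold in either direction.

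All 10 nonsense-mediated decay genes were detected, with a median log2 ratio of -0.01 and none past 1.5-fold. Smg8 was lowest at a mean of 7.63 TPM. Smg1, the kinase of the pathway, was lower in replicate 2 (log2 ratio -0.34, -0.39 to -0.29), and Smg5, Upf1 and Smg8 were higher beyond counting error, against 15.6% of all genes tested lower and 28.1% higher. Of 9 genes of TOP mRNAs and their regulation, 8 were higher in replicate 2 beyond counting error, against 28.1% of all genes tested, with a median log2 ratio of 0.22 and none past 1.5-fold. Eef1a1, a translation elongation factor, was highest at a mean of 981 TPM. Larp1, which binds TOP mRNAs, was lowest at 41.0 TPM and had an interval that included 0. The hosts with a TOP-like tract in their window had log2 ratios of 0.48 for Snhg8, -0.11 for Snhg12, -0.18 for Gas5 and -0.19 for Snhg3.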

How the data were processed

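Total RNA-seq was available for 2 libraries of 1 group, on the mm10 assembly per the labels. The deposited gene and transcript tables have the column layout of RSEM, per the file headers, and hold expected counts (not normalized), TPM, the percent of a gene's TPM in each transcript, and the bounds of a TPM interval, which are treated as scores because no level is stated in the file headers. A further deposited transcript table has the layout of kallisto, per the file headers, with estimated counts and TPM, and was summed per gene. No source used here gives the aligner, the tool versions or the use of strand. The tables were made on a reference genome, and any effect of CAST variants was not measured.

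Expected counts were rounded. Ratios are log2 of replicate 2 over replicate 1 after adding 0.5, scaled by TMM (edgeR 4.0.16 in R 4.3.3, factors 0.984 for replicate 2 and 1.02 for replicate 1, a log2 shift of 0.34). The 95% intervals are exact Clopper-Pearson intervals from the 2 counts and cover counting error only, as the tables give no molecular identifiers. On Poisson counts simulated for 12348 genes, 95.4% of the intervals held the true value. The draws held no other source of spread, so this checks the calculation only. Called means past 1.5-fold, or an interval without 0. Ratios of transcripts and nested RNAs needed 20 summed counts. Coordinates and small RNA sequences are from GENCODE M21 (GRCm38) and start windows from RefSeq (GRCm38.p6). Python 3.11.15 and scipy 1.17.1 were also used.

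The members and gene lists were chosen with earlier results of these data known. All 8 hosts are named, the most abundant nested RNA of each host is named, and of each list the highest, the lowest and any past 1.5-fold are named, except 1 result that is not reported here; Snu13, Nolc1, Smg1, Smg5, Upf1, Snhg5, Snhg17 and the remaining nested RNAs were named after their values were seen. With 2 libraries, likeness to other genes across samples was not calculated. Alternatives tried were DESeq2 1.42.0 size factors, spike-in scaling, a filter on a mean count of 10, deposited TPM ratios, a pseudocount of 1, the second quantification, the posterior mean, another TPM denominator, other fold thresholds and leaving out a library.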

Additional observations from a re-analysis of the deposited data

How the results depend on the processing

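No paired analysis was possible because the series holds 1 group. Leaving out a library leaves no ratio between libraries, so that alternative gave only levels, transcript shares and detection. The count of hosts past 1.5-fold, 1 in the values reported, was 2 in the second quantification (Snhg11 lower and Snhg8 higher in replicate 2), 2 at the lower fold threshold tried and 0 at 2-fold. The median level of the 8 hosts, 18.6 TPM, was 30.4 TPM in the second quantification, 18.7 TPM by posterior mean and 38.5 TPM when TPM was rescaled to nuclear protein-coding and lincRNA genes, and 18.05 to 18.2 TPM with 1 library left out. The median share of the leading transcript, 64.5%, was 36.8% in the second quantification and 58.5% to 73.2% with 1 library left out. The cause of these differences was not tested. The median log2 ratio of the hosts ran between -0.27 and -0.07 over the 6 alternatives of scaling, filter, pseudocount and quantification. The all-gene median shifted by -0.13 under spike-in scaling and by -0.15 with deposited TPM ratios. The sign held for 6 of 8 hosts in all 6, with Snhg11 between -0.78 and -0.59, Gas5 between -0.31 and -0.11 and Snhg8 between 0.35 and 0.61. In the second quantification Snhg6 turned to 0.03 and Snhg20 to 0.42. Minimum mean counts of 50 and 100 for hosts, and leaving out a library for nested RNAs, were chosen after seeing the data. They left 1 host past 1.5-fold, and 9 nested RNAs had counts when replicate 2 was read by itself and 7 when replicate 1 was. Depth limits the hosts with at most 284 counts in a library.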
